A study of Mus musculus with 2 samples.

Results

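Collagen genes are described here in the gastrocnemius, a fast calf muscle, of adult mice. They were taken as every annotated gene whose symbol has the form of a collagen chain (Col, a type number, the letter a and a chain number) and that has at least 1 protein-coding transcript. The rule used no measured value. It found 44 genes among the 55536 genes of the tables and the 22015 nuclear protein-coding genes, spread over 15 chromosomes. The samples were 2 female B6CASTF1/J mice, hybrids of the B6 and CAST strains, aged 8 to 10 months per the labels. Both share this genotype and no treatment is stated, so they form a single group, no comparison between groups exists and no p-value is given. Total RNA (300 ng per library, ribosomal RNA reduced, strand-specific kit, ERCC spike-ins added) was sequenced, 1 library per animal. Animal 1 of the labels is replicate 1 and animal 3 is replicate 2. Both carry 1 donor identifier in the labels, and that they are separate animals rests on their animal numbers there.

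A collagen molecule is a trimer of chains wound around each other, which is possible because glycine, the smallest residue, recurs at regular steps along the helical stretch of each chain. Muscle fibres lie in a sheath of basement membrane built on a type IV collagen mesh, held by type VI filaments to the interstitial fibrils of types I, III and V that carry force to the tendon. Most of these chains are made by fibroblasts and vessel cells of the muscle, while a few collagens, such as types XIII and XXV, span the membrane of the muscle fibre and act at the synapse with the motor nerve.

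Replicate 1 held 42714567 expected counts and replicate 2 held 43421652, which are estimated reads per gene that share out reads fitting several genes. Collagen genes took 20731 and 17153 of them, or 0.0485% and 0.0395%. Levels are in TPM, a transcript abundance scaled for length and depth, and a mean is followed by its standard deviation over the animals (SD, n = 2). A count of 0 allows up to 3 counts, or a CPM (count scaled to library size) of 0.0702 in replicate 1 and 0.0691 in replicate 2, for counting error only. Nuclear protein-coding genes held 48.2% of TPM in replicate 1 and 43.3% in replicate 2, so TPM of any such gene tended to be lower in replicate 2. As a check of the tissue label, the muscle fibre markers Acta1, Ckm, Myh4, Tnnt3 and Mylpf were all present and summed to 87880 and 77610 TPM.

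Collagen transcripts were a small part of the muscle's RNA. The 44 genes summed to 144 TPM in replicate 1 and 99.1 TPM in replicate 2 (122 ± 31.6), which was 0.0298% and 0.0229% of nuclear protein-coding TPM. At 1 TPM or more in both animals, 15 of 44 collagen genes were detected (34.1%), against 43.9% of all nuclear protein-coding genes. These were 7 fibrillar chains, Col4a1 and Col4a2, Col6a1 to Col6a3, Col14a1, Col22a1 and Col15a1. Col12a1, Col18a1 and Col16a1 reached 1 TPM in replicate 1 and not in replicate 2. The highest collagen, Col1a1, ranked 2658 among nuclear protein-coding genes by mean TPM. Col17a1, a collagen of skin cell attachments, and Col10a1, of growing cartilage, had 0 counts in both animals.

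**Figure D1:**
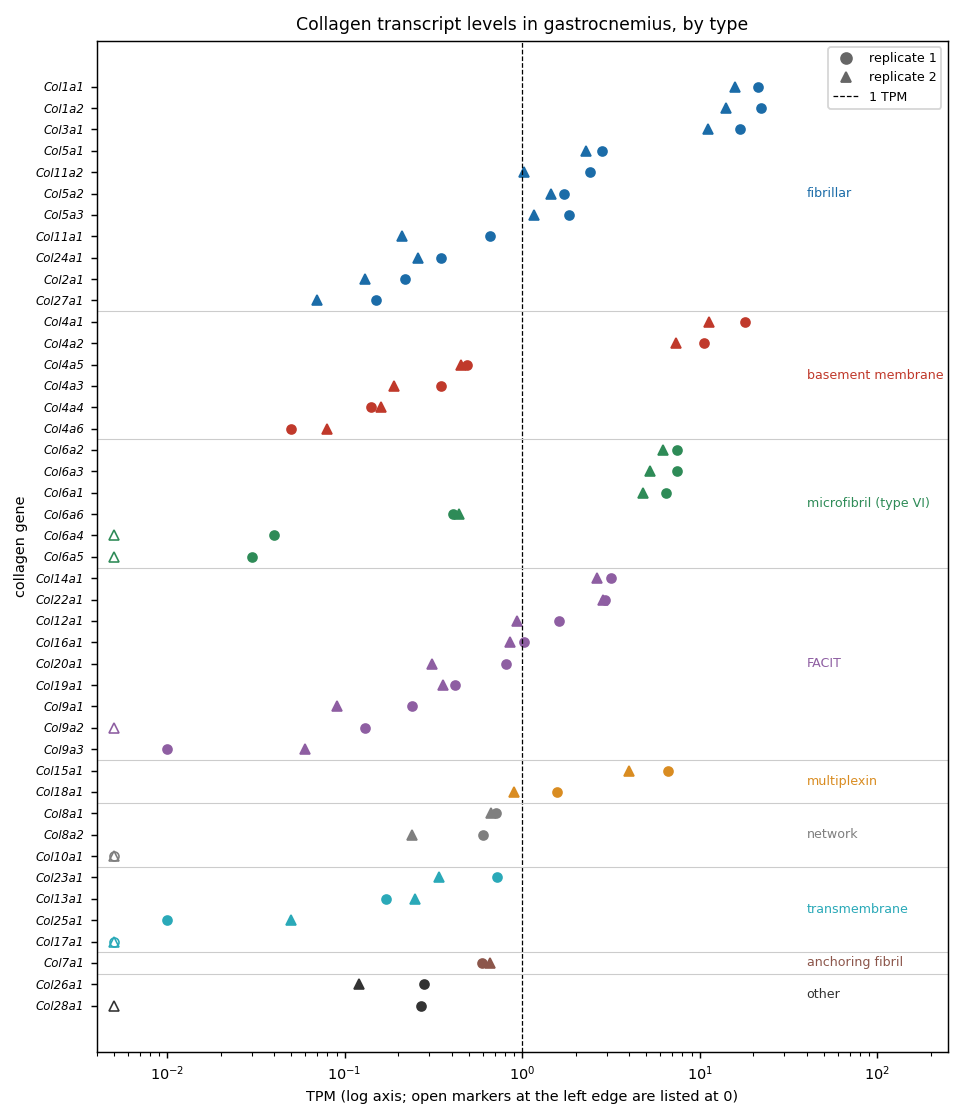
Level of each of the 44 collagen genes in TPM (log axis), with circles for replicate 1, triangles for replicate 2 and colours for the collagen types; open markers at the left edge are listed at 0 and the dashed line marks 1 TPM. The 5 highest genes, Col1a1, Col1a2, Col4a1, Col3a1 and Col4a2, run from 22.3 down to 7.36 TPM.

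The fibrillar collagens, which assemble into the banded fibres of connective tissue, held the largest share of collagen TPM, at 49.1% and 47.9% in the 2 animals. Col1a1 and Col1a2, the chains of type I, the main collagen of tendon and of the muscle's connective sheaths, led the family. Col1a1 (ENSMUSG00000001506.10, chr11:94936224-94953042, plus strand, GRCm38) had 3484 and 2958 counts and stood at 21.3 and 15.8 TPM (18.5 ± 3.90). Col1a2 (ENSMUSG00000029661.16, chr6:4504814-4541544, plus strand) had 3029 and 2299 counts and stood at 22.3 and 14.0 TPM (18.2 ± 5.81). Which of the 2 was higher by gene TPM differed between the animals. Over full-length coding transcripts (defined below) Col1a1 exceeded Col1a2 in both, by 1.06 and 1.17. Their order thus depended on the transcripts summed. Col3a1, whose type III trimers share fibrils with type I in stretchable tissue, had 2424 and 1761 counts and 17.0 and 11.1 TPM (14.0 ± 4.16). It lay below Col1a1 in both animals, at 0.751 ± 0.0662 of its level.

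The minor fibrillar chains, which start fibrils and limit their width, lay several-fold lower. Of type V, Col5a1 stood at 2.81 and 2.29 TPM, Col5a2 at 1.72 and 1.45 TPM, and Col5a3 at 1.83 and 1.16 TPM. Col5a1 was the highest of the 3 in both animals, while the order of Col5a2 and Col5a3 changed. Col11a2, a chain of type XI best known from cartilage, had 228 and 141 counts and reached 2.40 TPM in replicate 1 and 1.03 TPM in replicate 2, of which full-length transcripts held 1.35 and 0.77. Its partner Col11a1 had 66 and 52 counts and was listed at 0.66 and 0.21 TPM. Over its full-length transcripts it was listed at 0.27 and 0.21 TPM. Its transcript Col11a1-207, of 675 bases, was listed at 0.34 TPM in replicate 1 from 5.56 counts. The cartilage collagen Col2a1 had 10 and 7 counts. Col24a1 (59 and 50 counts) and Col27a1 (23 and 15 counts), fibrillar chains with a shorter helix, stayed below 0.5 TPM.

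Basement membrane collagen was almost wholly of the chains Col4a1 and Col4a2, which form the common type IV network around fibres and capillaries. Col4a1 (ENSMUSG00000031502.11, chr8:11198423-11312826, minus strand) had 2360 and 1981 counts and 18.0 and 11.3 TPM. Col4a2 (ENSMUSG00000031503.13, chr8:11312805-11449287, plus strand) had 1877 and 1504 counts and 10.5 and 7.36 TPM. Both were lower in replicate 2. The other type IV chains, Col4a3 to Col4a6, summed to 1.03 and 0.88 TPM, against 28.6 and 18.7 TPM for the first pair. Col4a5, which with Col4a3 and Col4a4 forms the network of the kidney filter, was the highest of them at 0.49 and 0.45 TPM, and Col4a1 exceeded it 31.0 ± 8.23-fold. Col4a3 had 32 and 48 counts, Col4a4 38 and 53, and Col4a6 9 and 16. For Col4a3 the TPM went the other way, 0.35 and 0.19, while its full-length coding transcripts stood at 0.12 and 0.17 TPM.

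The 6 type IV genes lie in 3 pairs that start next to each other on opposite strands. Col4a1 (minus strand, first base 11312826) and Col4a2 (plus strand, first base 11312805) on chromosome 8 overlap at their starts, by the annotation of GRCm38. The starts of Col4a4 and Col4a3 on chromosome 1 lie 72 bases apart, and those of Col4a6 and Col4a5 on chromosome X 1309 bases apart. Levels ran with the pairs: both members of the chromosome 8 pair were above 7 TPM in each animal, and all members of the other pairs were below 0.5 TPM.

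Type VI collagen, whose beaded filaments join the basement membrane to the surrounding matrix and whose chains are mutated in human congenital muscular dystrophies, was made up of Col6a1, Col6a2 and Col6a3. Col6a2 had 820 and 784 counts and 7.45 and 6.23 TPM. Col6a3 had 1293 and 1153 counts and 7.45 and 5.28 TPM. Col6a1 had 714 and 617 counts and 6.42 and 4.80 TPM. Their means were 6.84 ± 0.863, 6.37 ± 1.53 and 5.61 ± 1.15 TPM. Col6a1 lay below Col6a2 in both animals, while neither differed from Col6a3 by more than the larger SD. Col6a6, an alternative partner related to Col6a3, had 101 and 118 counts and 0.41 and 0.44 TPM. The neighbouring Col6a4 and Col6a5 on chromosome 9 had 1 and 0 counts and 7 and 1 counts, and Col6a5 was the only collagen gene with a posterior SD above 5% of its mean count in either animal.

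Collagens that decorate fibrils without forming them, the FACIT type, were led by Col14a1 and Col22a1. Col14a1, which binds type I fibrils, stood at 3.15 and 2.63 TPM. Col22a1, a collagen of the junction between muscle fibre and tendon, had 712 and 674 counts and 2.91 and 2.84 TPM (2.88 ± 0.0495). Over full-length transcripts Col22a1 stood at 2.91 and 2.36 TPM, and in a second deposited quantification at 2.35 and 2.90 TPM. Col12a1, a FACIT mutated in a human myopathy, stood at 1.62 and 0.94 TPM (299 and 186 counts). Col16a1 (1.02 and 0.85 TPM), Col20a1 (0.81 and 0.31 TPM, or 0.42 and 0.32 over full-length transcripts) and Col19a1 (0.42 and 0.36 TPM) each had between 45 and 59 counts per animal. The cartilage chains Col9a1, Col9a2 and Col9a3 had at most 21 counts.

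The multiplexins Col15a1 and Col18a1, proteoglycan collagens of basement membrane zones, differed from each other in level. Col15a1, whose loss causes a mild myopathy in mice, had 669 and 499 counts and 6.59 and 4.01 TPM (5.30 ± 1.82). It lay between Col6a1 and Col6a2 in replicate 1 and below the 3 main type VI chains in replicate 2. Over full-length coding transcripts Col15a1 stood at 4.45 and 2.97 TPM, below those 3 chains in both animals. Col18a1, the source of the fragment endostatin, had 198 and 138 counts and 1.58 and 0.90 TPM. Both were lower in replicate 2.

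The collagens of the neuromuscular synapse were near the limit of detection in this bulk tissue. Col13a1, a transmembrane collagen at the synapse whose loss causes a myasthenic syndrome in humans, had 14 and 24 counts, or 0.17 and 0.25 TPM. Col25a1, which developing mouse muscle needs for its motor innervation, had 2 and 8 counts, or 0.01 and 0.05 TPM. The pair summed to 0.18 and 0.30 TPM. Of a list of synaptic partners, 12 of 12 were detected (11 in the second quantification), where 43.9% of all nuclear protein-coding genes were. The list was led by Lamb2, a laminin chain present at the synapse, at 63.1 ± 7.95 TPM. Rapsn and Musk, which cluster acetylcholine receptors, followed at 13.2 ± 0.240 and 10.3 ± 1.15 TPM. Bulk RNA does not show how much of any of these transcripts came from the synapse. Colq, the collagen-like tail that anchors acetylcholinesterase, was not taken by the naming rule; it had 182 and 227 counts (2.47 ± 0.141 TPM). In bulk RNA fewer cells of a type and less RNA per cell cannot be told apart.

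The remaining collagens were low. The network-forming chains of type VIII, found in vessel walls, stood at 0.71 and 0.67 TPM for Col8a1 and at 0.60 and 0.24 TPM for Col8a2. The transmembrane collagen Col23a1 had 64 and 61 counts. Col7a1, the anchoring fibril collagen of skin, was listed at 0.59 and 0.66 TPM on 29 and 37 counts. Col26a1 had 4 and 5 counts. Col28a1, known from the nodes and Schwann cells of mouse peripheral nerve, had 9 counts in replicate 1 and 0 in replicate 2. The Schwann cell markers also differed (7 listed, summed 55.7 and 12.2 TPM, none at 0). All 5 that had enough reads were over 2-fold lower in replicate 2. Of all genes tested, 1.38% were at least 2-fold apart in either direction. The part of Schwann cells in the Col28a1 counts, which were too few to compare, was not tested.

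Summed by type, the order was fibrillar, basement membrane, type VI, FACIT and multiplexin in both animals. Fibrillar genes summed to 70.7 and 47.5 TPM, or 48.5 ± 0.842% of collagen TPM. The 3 chains of types I and III alone held 41.7 ± 0.566%. Basement membrane genes summed to 29.6 and 19.6 TPM (20.1 ± 0.592%) and type VI genes to 21.8 and 16.8 TPM (16.0 ± 1.23%). In TPM the latter 2 groups overlapped between animals, since type VI in replicate 1 lay above basement membrane in replicate 2, but their shares did not overlap (20.6% and 19.7% against 15.1% and 16.9%). FACIT genes held 7.66 ± 0.697%, multiplexins 5.32 ± 0.513%, network genes 0.914 ± 0.00531%, transmembrane genes 0.636 ± 0.0142% and the synaptic pair 0.214 ± 0.126%. The fibrillar share thus exceeded the basement membrane share by far more than either SD, and the share of each of the 5 leading types varied less between animals, relative to its mean, than its summed TPM. Shares moved somewhat with the quantification: fibrillar genes held between 46.5% and 51.8% and basement membrane genes between 19.4% and 24.2%, and the order of these 2 types did not change.

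**Figure D2:**
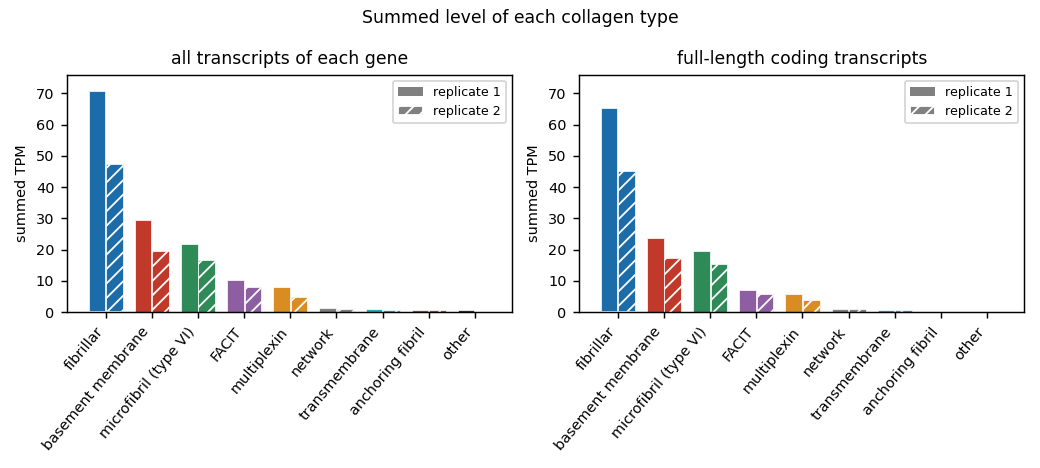
Summed TPM of each collagen type in replicate 1 (plain bars) and replicate 2 (hatched bars), over all transcripts of each gene on the left and over full-length coding transcripts on the right. Fibrillar genes sum to 70.7 and 47.5 TPM on the left and to 65.2 and 45.3 TPM on the right, above every other type in both animals.

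Chains that share a trimer can be compared per length. Type I trimers hold more Col1a1 than Col1a2 chains. The transcript ratio was 0.956 and 1.12 in the 2 animals (1.04 ± 0.118), on both sides of equality. It was 1.06 and 1.17 over full-length coding transcripts, and 0.908 and 1.00 in the second quantification. For the type IV pair, Col4a1 exceeded Col4a2 by 1.71 and 1.54 (1.62 ± 0.123). That ratio depended on short transcripts, falling to 1.22 ± 0.0525 when only full-length coding transcripts were summed and rising to 2.36 ± 0.316 in the second quantification, derived from the reads per the deposited file descriptions, but it stayed above 1 in both animals in each. Col5a1 exceeded Col5a2 by 1.61 ± 0.0385, and by 1.54 ± 0.0503 in the second quantification. Col6a1 lay below Col6a2 at 0.816 ± 0.0645, in both animals and in each quantification. Col6a3 exceeded Col6a1 by 1.13 ± 0.0427, but with full-length transcripts the ratio turned to 0.843 ± 0.0160, so the order of these chains is uncertain. The ratio of Col8a1 to Col8a2, 1.18 and 2.79, rested on counts of 46 and 32 for Col8a2 and varied most. The 343-base transcript Col8a2-202 was listed at 0.22 TPM from 1.52 counts in replicate 1 and at 0 in replicate 2. The Col8a1 to Col8a2 ratio was 1.78 and 2.67 over full-length coding transcripts, and 1.97 and 2.60 in the second quantification.

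**Figure D3:**
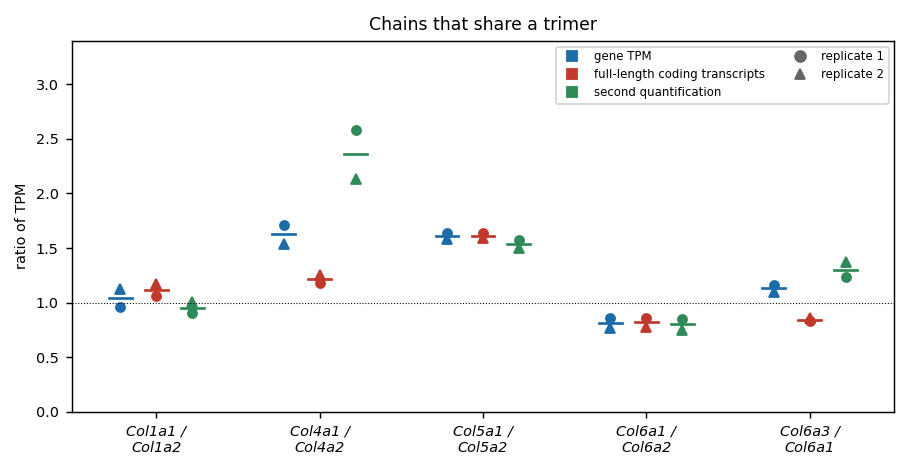
Ratio of TPM between chains known to share a trimer, with circles for replicate 1, triangles for replicate 2 and bars for their mean, from gene TPM (blue), from full-length coding transcripts (red) and from the second quantification (green); the dotted line marks equal levels. The Col4a1 to Col4a2 ratio ranges from 1.22 to 2.36 between the measures, while Col6a1 to Col6a2 stays near 0.816.

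Short transcripts had a strong bearing on collagen TPM because a few reads on a short transcript weigh as much as many on a long one. Full-length coding transcripts were taken as protein-coding transcripts of at least 50% of the length of the longest one of the gene, a choice made after the values were seen. All other transcripts held 2.63% and 1.84% of collagen counts but 14.5% and 9.79% of collagen TPM. For single genes the median share of TPM outside full-length transcripts was 11.8% and 5.65% over the 26 collagen genes with a mean count of at least 50, against 14.3% and 14.8% over all such protein-coding genes. Most of the main chains were carried by 1 transcript: Col1a1-201, Col4a2-201 and Col5a1-201 held 100% of their gene in both animals and Col3a1-201 90.2 ± 2.27%. Col4a1 was the exception among the highest genes. Its full-length transcript Col4a1-201 held 12.4 and 9.22 TPM, and the 545-base Col4a1-203 was listed at 2.82 TPM from 35 counts in replicate 1 and at 0.10 TPM from 1 count in replicate 2. With full-length transcripts only, Col4a1 fell from 14.7 to 10.8 TPM and below Col3a1, at 12.7 TPM. Col6a3-202 held 66.3 ± 5.67% of Col6a3. Col18a1 was split between the variants Col18a1-202 (59.6 ± 1.42%) and Col18a1-201 (16.3% and 32.9%), and Col14a1 between Col14a1-201 (50.8% and 32.1%) and Col14a1-203 (27.6% and 46.6%). The level of Col7a1 came mostly from the retained-intron fragment Col7a1-208 (76.8 ± 2.31%), and its full-length transcripts held only 0.08 ± 0.0141 TPM. Col16a1 had 0.02 and 0.15 TPM in full-length transcripts, but there shortness was only part of it. Its long transcripts Col16a1-209 (5138 bases) and Col16a1-202 (4574 bases) were left out as not protein-coding. Col16a1-209 had 46.5 and 11.0 counts and Col16a1-202 had 0 and 16.3.

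The coding sequences show the repeat that lets the chains wind together. In 9-base steps each helical stretch opens with a glycine codon, GGN, followed by 2 other codons. The exons printed here are 54 bases long and were chosen because they hold nothing but whole repeats, in abundant chains of types I, III and VI. Capitals mark every in-frame GGN codon, and bases are the coding strand from GENCODE M21 transcripts on GRCm38. They are coding exon 8 of Col1a1 (chr11:94939904-94939957, plus strand), coding exon 8 of Col1a2 (chr6:4515481-4515534, plus strand), coding exon 6 of Col3a1 (chr1:45325360-45325413, plus strand), coding exon 9 of Col6a1 (chr10:76719623-76719676, minus strand) and coding exon 5 of Col6a2 (chr10:76611948-76612001, minus strand).
Col1a1-201: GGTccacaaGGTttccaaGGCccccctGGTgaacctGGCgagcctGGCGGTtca
Col1a2-201: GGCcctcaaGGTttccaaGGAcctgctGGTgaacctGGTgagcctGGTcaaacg
Col3a1-201: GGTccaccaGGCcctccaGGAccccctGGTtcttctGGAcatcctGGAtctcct
Col6a1-201: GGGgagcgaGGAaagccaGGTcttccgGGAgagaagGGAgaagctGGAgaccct
Col6a2-201: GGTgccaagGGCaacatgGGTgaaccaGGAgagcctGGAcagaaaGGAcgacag
Each holds 6 repeats in a row. In Col1a1 a further GGN codon stands inside the last repeat, which makes 7 in all.

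In type IV, multiplexin and transmembrane collagens the repeat is interrupted. The next exons, of Col4a1, Col4a2, Col15a1 and Col13a1, were chosen because each holds such a break, visible as a longer stretch of small letters or as GGN codons out of step. They are coding exon 31 of Col4a1 (chr8:11220982-11221095, minus strand, 114 bases), coding exon 19 of Col4a2 (chr8:11415926-11416075, plus strand, 150 bases), coding exon 13 of Col15a1 (chr4:47270252-47270377, plus strand, 126 bases) and coding exon 23 of Col13a1 (chr10:61870161-61870247, minus strand, 87 bases).
Col4a1-201: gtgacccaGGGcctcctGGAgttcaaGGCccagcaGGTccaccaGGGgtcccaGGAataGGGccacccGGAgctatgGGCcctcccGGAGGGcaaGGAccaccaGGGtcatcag
Col4a2-201: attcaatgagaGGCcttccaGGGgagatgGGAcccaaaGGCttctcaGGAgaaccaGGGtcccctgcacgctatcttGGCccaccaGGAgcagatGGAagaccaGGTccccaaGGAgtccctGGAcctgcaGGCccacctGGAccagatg
Col15a1-202: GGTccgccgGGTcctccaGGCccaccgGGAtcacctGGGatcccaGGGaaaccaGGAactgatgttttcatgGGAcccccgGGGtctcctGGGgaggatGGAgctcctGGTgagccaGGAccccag
Col13a1-205: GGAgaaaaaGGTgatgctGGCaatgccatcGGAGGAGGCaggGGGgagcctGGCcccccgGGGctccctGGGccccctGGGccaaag
The Col4a1 exon holds runs of 6 and 5 repeats on either side of its break, the Col4a2 exon runs of 6 and 8, the Col15a1 exon runs of 7 and 6, and the Col13a1 exon runs of 3, 1 and 5.

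Over whole genes the fibrillar type stood apart in its unbroken repeat. In the 9 fibrillar chains other than Col24a1 and Col27a1 the longest unbroken run was 337 to 344 repeats, with 338 in Col1a1, 339 in Col1a2 and 344 in Col3a1. Col24a1 and Col27a1 had 216 and 217. Type IV chains broke their helix into 17 to 24 runs of at least 3 repeats, the longest of 39 to 66. The longest run was 37 to 87 repeats in type VI chains, 30 in both multiplexins and 40 to 56 in transmembrane collagens. FACIT chains ran from 32 to 113, with 113 in Col22a1 and in the 3 type IX chains. Among inner coding exons, 48.6% of the 627 in fibrillar genes were 54 bases long, against 26.3% in FACIT genes, 8.25% in type VI genes, 4.23% in type IV genes and 0.444% of the 157333 in all other protein-coding genes. Within the FACIT type the share reached 46.7% in Col9a2 and Col9a3 and 45.9% in Col22a1, inside the fibrillar range of 42.9% to 56.9%. An exon length that is a multiple of 9 bases was found for 83.9% of fibrillar inner exons and for 13.7% of those of other genes. The highest and the lowest fibrillar genes thus shared this structure, Col1a1 (18.5 TPM) having 42.9% of exons at 54 bases and Col27a1 (0.11 TPM) 55.9%.

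**Figure D4:**
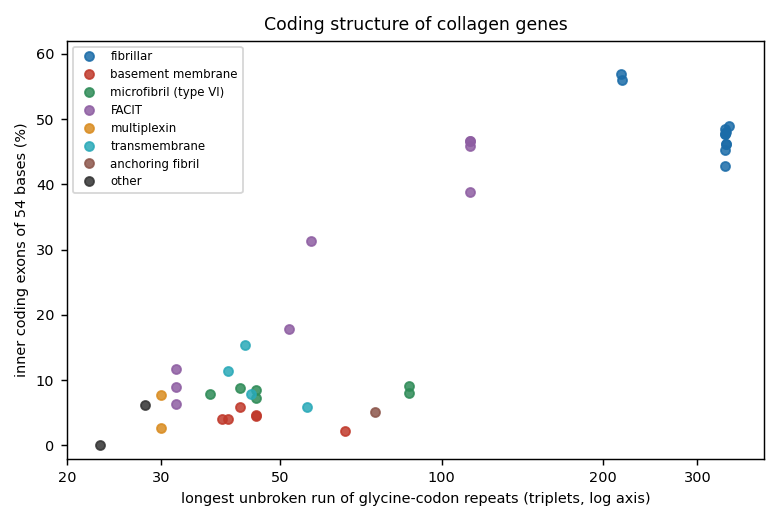
Longest unbroken run of glycine-codon repeats in the coding sequence (log axis) against the percentage of inner coding exons that are 54 bases long, 1 point per collagen gene, coloured by type; the 3 network genes have no inner coding exon and are not shown. Fibrillar genes lie apart by run length, at 216 to 344 repeats, with 42.9% to 56.9% of exons, a range that FACIT genes with runs of 113 repeats reach at up to 46.7%, and type IV genes at 39 to 66 repeats and 2.22% to 5.88%.

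Between the animals, collagens were mostly lower in replicate 2. Counts were scaled by TMM, which sets the bulk of genes equal, and the 26 collagen genes with a mean count of at least 50 were compared among 11125 such genes. Of these 26, 24 had a lower scaled count in replicate 2 (92.3%), where 49.1% of all genes did. None of the 26 was 2-fold apart, against 1.38% of all genes (154 of 11125). The median log2 ratio of replicate 2 over replicate 1 was -0.24 for the collagens and 0.00 for all genes, whose 5th and 95th percentiles were -0.50 and 0.38. With scaling to the spike-ins the medians were -0.36 and -0.12, and 25 of 26 collagens lay below 0, as did 77.3% of all genes. Each animal has 1 library, so these are differences between libraries with no replicate check.

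By type, all 9 fibrillar genes compared were lower in replicate 2, and their log2 ratios had a median of -0.35. The type I and III genes had log2 ratios of -0.25 (Col1a1), -0.41 (Col1a2) and -0.48 (Col3a1), each with a 95% counting interval (exact binomial) wholly below 0. Col11a2 had the largest difference, -0.70 on 228 and 141 counts. Its interval ran from -1.02 to -0.40. Both multiplexins were lower, Col15a1 at -0.44 and Col18a1 at -0.53, and so were the 3 basement membrane genes compared, Col4a1 at -0.27, Col4a2 at -0.34 and Col4a5 at -0.18. All 6 FACIT genes compared lay below 0, from Col12a1 at -0.70 to Col14a1 at -0.03. The 3 abundant type VI chains had smaller differences than types I and III, Col6a1 at -0.23, Col6a3 at -0.18 and Col6a2 at -0.08. The intervals of all 3 overlapped that of Col1a1 (-0.32 to -0.18). Overlap does not decide whether ratios differ, and a difference from Col1a1 was not tested. The interval of Col6a1 ran from -0.38 to -0.07. Intervals, which cover counting error only, lay wholly below 0 for 12 of the 26 genes and wholly above 0 for none. They were not computed over all genes tested, so these counts have no background share beside them.

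Of the 26, 2 had more scaled counts in replicate 2, Col6a6 (0.20) and Col8a1 (0.11), where 50.9% of all genes did, and their intervals spanned 0. Col8a1 turned to -0.02 with spike-in scaling. Among the 18 collagens with fewer counts, 7 had more counts in replicate 2, 8 had fewer and 3 were equal. Those with more were Col4a3, Col4a4, Col4a6, Col7a1, Col13a1, Col25a1 and Col26a1. For Col13a1 and Col25a1 the log2 ratios of counts were 0.76 and 1.98, with intervals from -0.25 to 1.83 and from -0.34 to 5.26, so neither difference was detectable at this depth.

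**Figure D5:**
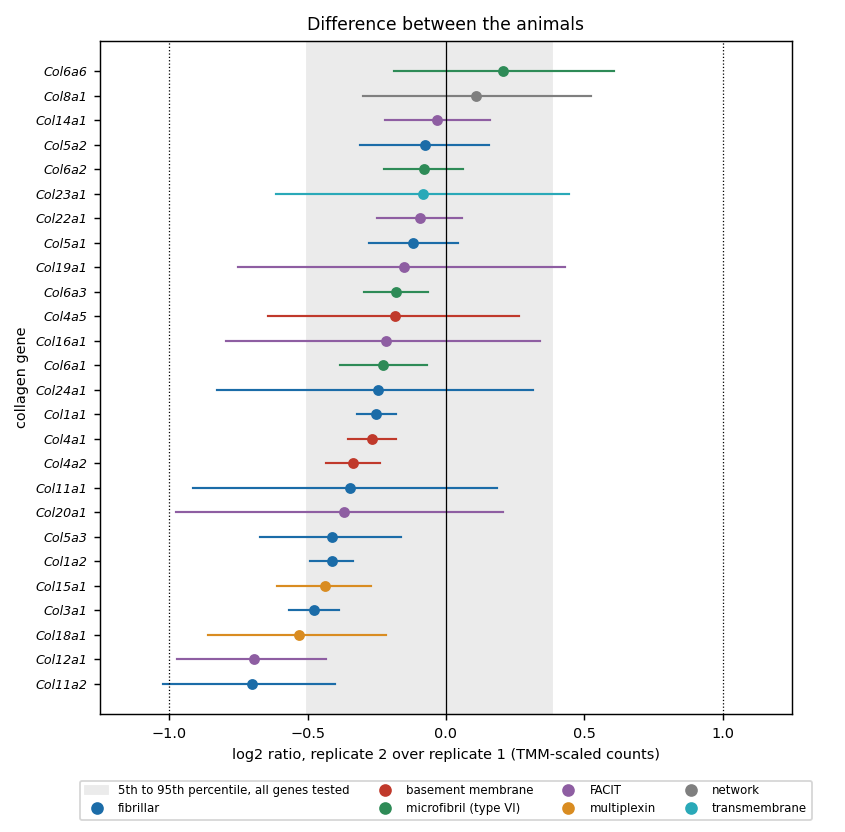
Log2 ratio of replicate 2 over replicate 1 (TMM-scaled counts) for the 26 collagen genes with a mean count of at least 50, with lines for the 95% counting interval and colours for the types; the grey band is the 5th to 95th percentile of all genes tested and dotted lines mark 2-fold. Of the 26 points 24 lie left of 0, and Col11a2, Col12a1 and Col18a1 lie left of the band.

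Other genes of the collagen pathway were listed by step, 85 in all, of which 57 were detected at 1 TPM in both animals, where 43.9% of all nuclear protein-coding genes were. Of 64 with enough counts, 47 were lower in replicate 2 and 17 higher, with 49.1% of all genes lower. The median log2 ratio was -0.21, and 2 were past 2-fold, as were 1.38% of all genes. The enzymes that modify the chains were led by P4hb (87.8 ± 3.11 TPM), the shared subunit of prolyl hydroxylase, Colgalt1 (17.0 ± 0.926), which adds galactose, and the catalytic subunits P4ha1 (15.8 ± 4.20) and P4ha2 (14.9 ± 4.50). P4hb, which also works as a general disulfide isomerase, had a log2 ratio of 0.06, and P4ha1 of -0.38. Of export genes, Mia3 (81.5 ± 1.12 TPM), which loads collagen into transport carriers, lay at 0.03, Mia2 at 0.21 and Sec23a at -0.04. Serpinh1, the chaperone dedicated to collagen, had 1127 and 727 counts, 19.6 and 10.8 TPM and a log2 ratio of -0.65.

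Outside the cell, 4 of 5 processing genes, 4 of 5 crosslinking genes, 9 of 10 partners of the fibril and 5 of 6 breakdown genes with enough counts were lower in replicate 2. Over all genes the share was 49.1% by TMM and 77.3% with spike-in scaling. Of the processing genes, Furin (23.2 ± 3.43 TPM), Pcolce (7.89 ± 1.69) and Pcolce2 (2.15 ± 0.559) had log2 ratios of -0.12, -0.20 and -0.05, and Bmp1, which removes the C-terminal propeptide, lay at 0.04. The crosslinking genes Tgm2, Loxl1 and Loxl2 had log2 ratios of -0.12, -0.45 and -0.26, and Pxdn, which crosslinks type IV collagen, of 0.05. Among partners of the fibril, Dcn (67.2 ± 14.8 TPM), Sparc (48.3 ± 13.1), Fmod (12.8 ± 3.25) and Bgn (9.78 ± 2.45) lay between -0.28 and -0.46. Postn, a matrix protein of growing and strained tissue, was past 2-fold at -1.07 (116 and 55 counts). Among breakdown genes Timp4, an inhibitor of matrix proteases, was past 2-fold at -1.23 (831 and 357 counts), whereas Timp3 and Timp2 lay at -0.02 and -0.08 and Mmp2 at -0.37. The collagenase genes Mmp13 and Mmp8 had 0 counts in both animals.

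Collagen receptors and synaptic partners had medians near 0. Of 8 receptors compared 4 were lower and 4 higher in replicate 2, with a median of 0.01. Itgb1, the integrin beta subunit of collagen receptors, stood at 67.2 ± 6.77 TPM with a log2 ratio of -0.03, Ddr1 at 0.25, Ddr2 at -0.20 and Itga1 at 0.05. The synaptic partners had a median of -0.05, with Musk at 0.50, Rapsn at 0.21, Ache at -0.05 and Lamb2 at -0.12. Of the regulators of collagen genes, Smad3 lay at -0.46, Tgfb3 at -0.05, Yap1 at 0.10 and Tgfbr1 at -0.25. With spike-in scaling the receptor median was -0.12 and that of synaptic partners -0.18, beside -0.12 for all genes.

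Most markers of the cells that make collagen were lower in replicate 2. Some of them, among these Dcn, Fmod and Scx, were already counted with the pathway genes above. Of all genes tested, 49.1% were lower by TMM and 77.3% with spike-in scaling. Fibroblast markers summed to 270 and 211 TPM, with 6 of 7 lower and a median log2 ratio of -0.25. Tendon markers summed to 39.4 and 27.9 TPM (4 of 4 lower, median -0.30). Endothelial markers summed to 58.7 and 48.1 TPM (5 of 6, median -0.17) and mural cell markers to 105 and 77.6 TPM (5 of 6, median -0.13). With spike-in scaling these 4 medians, from fibroblast to mural, were -0.37, -0.43, -0.29 and -0.26, beside -0.12 for all genes. Schwann cell markers had a median of -2.10. Muscle fibre markers had a median of 0.00. Satellite cell markers summed to 2.05 and 1.65 TPM, macrophage markers to 5.52 and 4.91 and adipocyte markers to 4.30 and 3.46. On scaled counts the 1 satellite marker and the 2 macrophage markers compared were higher in replicate 2 (medians 0.19 and 0.15), and the 2 adipocyte markers lower (median -0.32). No listed marker of any type was at 0 in both animals. The most abundant fibroblast markers, Gsn, Dcn, Ly6a and Dpt, had log2 ratios of -0.11, -0.28, -0.37 and 0.10, and the tendon markers Thbs4, Fmod, Scx and Comp of -0.42, -0.35, -0.18 and -0.25. The part of these cells in the collagen differences was not tested.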

How the data were processed

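Total RNA libraries of 2 animals were measured. The authors deposited, per the file headers, gene and transcript tables laid out as RSEM writes them and transcript tables laid out as kallisto writes them, the second quantification. The labels name mm10 and GENCODE M21; no program is named there, and whether counting used strand is not given in these sources. Expected counts, as deposited, are estimates of reads and are not normalized. The deposited TPM values are those counts over effective length, scaled to a fixed total per library. Percent values, as deposited, split a gene's TPM among its transcripts. The deposited posterior SD of a count, an other measure of read sharing, was set against 5% of the mean.

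Expected counts were rounded for edgeR 4.0.16 (R 4.3.3). TMM factors came from all genes, and log2 ratios of CPM used a prior count of 2 and a mean count of at least 50. Values are means with SD; counting intervals are exact binomial (95%). They and the floors describe counting error alone, because the labels name no molecular identifiers. The steps were tested on simulated data. Coding sequences, exons and coordinates came from GENCODE M21 on GRCm38, the assembly also called mm10. Allele of origin was not analysed here.

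The members and gene lists were chosen with earlier results of these data known. Genes named are every collagen gene and, of each other list used, the 4 highest by mean TPM and any member past 2-fold; Colq, Myh4, Mmp13 and Mmp8 were chosen after their values were seen. Python 3.11.15 was used with SciPy 1.17.1, NumPy 2.4.6, pandas 2.3.3 and matplotlib 3.10.9. Alternatives used DESeq2 1.42.0 size factors, spike-in scaling, other count minimums and prior counts, TPM thresholds of 0.5 and 2, posterior mean TPM, the second quantification, full-length transcripts, rescaling over nuclear protein-coding genes and each animal left out.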

Additional observations from a re-analysis of the deposited data

How the results depend on the processing

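No paired analysis was possible because both animals belong to the same group. Between animals, all 26 collagen log2 ratios kept their direction with DESeq2 size factors, a prior count of 0.5 and the second quantification. With spike-in scaling only Col8a1 turned, from 0.11 to -0.016. A count minimum of 10 only adds genes and leaves these 26 ratios unchanged by construction, so it does not check their direction. The count of collagens 2-fold apart moved from 0 to 1 with a count minimum of 10 (Col9a1, 21 and 9 counts), which tests more genes, and that of all genes from 154 to 578. The fibrillar share was 46.5% in the second quantification, 46.8% by posterior mean TPM, 51.8% over full-length transcripts and 50.1% of expected counts. The basement membrane share was 24.2%, 19.4% and 21.4% in the second quantification, full-length transcripts and expected counts. The synaptic pair's share was 0.383% by posterior mean TPM. Col4a1 over Col4a2 was 2.36 in the second quantification and 1.22 over full-length transcripts. Col6a3 over Col6a1 was 1.30, 1.19 and 0.843 by the second quantification, posterior mean and full-length transcripts, and Col5a1 over Col5a2 1.54 and 1.43 by the first 2. The cause of these shifts was not tested.

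With either animal left out, the fibrillar share ranged from 47.9% to 49.1%, basement membrane from 19.7% to 20.6%, type VI from 15.1% to 16.9% and the synaptic pair from 0.125% to 0.303%. The ratios ranged from 0.956 to 1.12 (Col1a1 to Col1a2), 1.54 to 1.71 (Col4a1 to Col4a2), 0.771 to 0.862 (Col6a1 to Col6a2), 1.10 to 1.16 (Col6a3 to Col6a1), 1.58 to 1.63 (Col5a1 to Col5a2) and 1.18 to 2.79 (Col8a1 to Col8a2), and 15 to 18 collagens were detected. Of the 44 single levels, 13 moved by more than their SD in the second quantification, 22 by posterior mean TPM and 11 over full-length transcripts. With 2 animals an SD is itself imprecise, and 18 collagens had too few counts to compare between animals.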
